A study of Mus musculus with 16 samples.

Results

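The nuclear-encoded genes of respiratory complex I were examined in the adult medial prefrontal cortex of mice lacking 1 working copy of Arid1b and given fluoxetine early in life. Genes were taken by symbol: Ndufa, Ndufb, Ndufc, Ndufs or Ndufv followed by a digit, or Ndufab1, with symbols ending in a pseudogene mark left out. Of 18424 genes in the table, 39 fitted. Another 2 symbols of the annotation that fit the rule, Ndufa11b and Ndufs6b, were not analysed here. All 39 genes passed the filter on low values, which required a normalized read count of at least 10 in at least 4 mice, in each of the 8 comparisons.

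RNA sequencing had been performed on 16 male C57BL/6N mice at postnatal day 120, 4 in each of 4 groups. WT-Veh mice were wild type and had been reared by dams that drank vehicle, which was 0.2% saccharin water. WT-Flx mice were wild type and had been reared by dams whose saccharin water held fluoxetine, a selective serotonin reuptake inhibitor, at 0.1 mg per ml. HT-Veh and HT-Flx mice were heterozygous for a truncating mutation that CRISPR/Cas9 had placed in exon 5 of Arid1b, a subunit gene of the SWI/SNF chromatin remodelling complex, and had received the same vehicle or fluoxetine water through their dams. Dams drank it from postnatal day 3 to day 21, when pups were weaned, and all mice were then given normal water. The drug was thus given to dams and not to single pups, and the labels do not say which mice shared a litter. Mice are named below by group and by the replicate number of the sample title.

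Complex I, or NADH:ubiquinone oxidoreductase, is the entry point of the mitochondrial respiratory chain. Its matrix arm takes electrons from NADH and passes them over a flavin and a chain of iron-sulfur clusters to ubiquinone, and its membrane arm pumps protons across the inner membrane. The conserved catalytic subunits are split between the genomes: the matrix arm's are encoded in the nucleus, and the membrane arm's in mitochondrial DNA. The remaining, accessory subunits are all nuclear, and a set of assembly factors helps to build the enzyme without staying in it. Neurons depend heavily on this enzyme for ATP, since they make most of it by oxidative phosphorylation.

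By role, the 39 genes comprised 7 subunits of the catalytic core, 9 further subunits of the matrix arm, 9 of the proximal membrane arm, 10 of the distal membrane arm (Ndufb2 to Ndufb11), the acyl carrier protein Ndufab1, 2 genes whose products are not regarded as complex I subunits (Ndufa4, now assigned to cytochrome c oxidase, and its relative Ndufa4l2), and Ndufb4c. The last is annotated as a processed pseudogene of 390 bases, all of which match Ndufb4. Its mean value over 16 mice was 919, against 306 for Ndufb4, so reads of the 2 genes cannot be told apart over that stretch and both values are uncertain. For brevity, all 39 are called complex I genes below. They lay on 15 chromosomes, with at most 5 on chromosome 17. Their median transcript length was 782 nucleotides, against 2746 for all protein-coding genes of the table.

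Values are normalized read counts, that is, estimated reads per gene after the authors' DESeq2 normalization. They summed to between 26718751 and 29902419 per mouse after scaling, and how deeply each library was sequenced is unknown. Arid1b, the targeted gene, ranged from 1787 to 2831 in the 8 wild-type mice and from 1545 to 2005 in the 8 heterozygous mice. The ranges overlapped, with WT-Veh mouse 1 the lowest of the wild types. Markers of cortical glutamatergic neurons were high in every mouse (Slc17a7, the vesicular glutamate transporter, from 32162 to 43463). Markers of the olfactory bulb, which borders the dissected region, were uneven: the sum of 7 such genes ran from 242 to 9959 in WT-Veh, from 389 to 7552 in WT-Flx, from 256 to 2929 in HT-Veh and from 209 to 342 in HT-Flx. Among them Eomes was listed at 0 in 1 mouse. In bulk tissue, fewer cells of a type and less RNA per cell cannot be told apart.

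Per kilobase of transcript, which permits comparison between genes, the level was highest for Ndufa4 (7075 ± 1259.7 normalized reads per kilobase, SD, n = 16), Ndufb9 (3753 ± 356) and Ndufa6 (3265 ± 421). It was lowest for Ndufa4l2 (69.1 ± 17.1), Ndufb4 (316 ± 53.0) and Ndufb2 (380.4 ± 57.9). Ndufb9 and Ndufa6 differed by little more than the SD of either gene. Ndufa4l2, known as a gene induced by low oxygen, was thus far below its relative Ndufa4, and the other 37 genes lay between them. The order depends on the annotated lengths, and Ndufb2 was divided by a median transcript length of 2413 nucleotides, more than 3 times the 782 of the median gene. The place of Ndufb4 is uncertain, since its reads cannot be told apart from those of Ndufb4c over 390 bases.

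Among the 35 RefSeq promoter windows (GRCm38.p6, 250 bases before to 50 after the start) that matched 33 of the 39 genes, letters read by factors known to drive mitochondrial genes were looked for on both strands. AAGATGGC, the core read by YY1, lay in 7 of the 35 windows (20.0%), against 2.75% of all 32851 windows. All 7 matches were on the gene's own strand and began between 23 and 39 bases after the start. Each held the annotated start codon of the gene as its ATG. A start codon lay in 14 of the 35 windows, and the 2.75% was not limited to windows that hold one. The 7 matches are shown as 30-base stretches with the matched letters in capitals. This shared position at the first codon is what these 7 windows have in common beyond the gene family.

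Ndufc1 (chr3:51408915-51408944, minus strand): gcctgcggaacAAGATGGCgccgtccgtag
Ndufa9 (chr6:126849097-126849126, minus strand): cattgtgggagAAGATGGCggccgccgtcc
Ndufa3 (chr7:3617384-3617413, plus strand): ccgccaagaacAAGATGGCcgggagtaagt
Ndufs7 (chr10:80249462-80249491, plus strand): aggccgaggccAAGATGGCggcgctggcgg
Ndufs6 (chr13:73328433-73328462, minus strand): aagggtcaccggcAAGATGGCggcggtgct
Ndufs4 (chr13:114388045-114388074, minus strand): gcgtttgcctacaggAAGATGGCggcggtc
Ndufb8 (chr19:44555393-44555422, minus strand): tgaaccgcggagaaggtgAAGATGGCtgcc

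GCGCATGC, read by NRF1, lay in 3 windows (8.57%, against 2.71% of all), in each case before the start. The stretches follow, with the matched letters or their reverse complement in capitals. In Ndufa11 the letters read on either strand overlap, and the match on the gene's own strand is printed.

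Ndufa8 (chr2:36049328-36049357, minus strand): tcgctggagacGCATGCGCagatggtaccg
Ndufa6 (chr15:82354356-82354385, minus strand): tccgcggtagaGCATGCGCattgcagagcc
Ndufa11 (chr17:56717691-56717720, plus strand): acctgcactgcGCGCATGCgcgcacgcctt

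CCGGAAG, read by GABP, lay in 4 windows (11.4%, against 8.86%), those of Ndufs3, Ndufb6, Ndufb7 and Ndufs8. AAGGTCA, read by estrogen-related receptors, lay in 3 windows (8.57%, against 4.72%), those of Ndufs5, Ndufb2 and Ndufb4. GGGCGG, read by Sp factors, lay in 16 windows (45.7%, against 35.7%). Matches are descriptions of letters, and binding was not measured. The 7 genes with AAGATGGC at the start codon had a median log2 change of -0.17 in HT-Veh versus WT-Veh, and the other 26 genes with a window one of -0.17. In WT-Flx versus WT-Veh the medians were -0.20 and -0.078, and in HT-Flx versus WT-Flx, where the order was the other way, 0.0097 and -0.13.

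WT-Veh mouse 1 and WT-Flx mouse 1 stood apart from the other 14 mice. Complex I genes made up 0.278% and 0.254% of all normalized reads in these mice, and between 0.175% and 0.204% in the others. Their mean over the 39 genes, on the log2(value + 1) scale, was 10.65 and 10.56, whereas the other mice lay between 10.02 (WT-Flx mouse 2) and 10.29 (WT-Veh mouse 4). WT-Veh mouse 1 exceeded all 14 in 36 of the 39 genes and WT-Flx mouse 1 in 31 of 39, against 21.5% and 20.7% of the 12543 genes with a mean of at least 100. The highest value of a gene was found in WT-Veh mouse 1 for 25 genes, in WT-Flx mouse 1 for 12, and in WT-Veh mice 2 and 3 for 1 each. The lowest value lay in WT-Flx mouse 2 for 15 genes and in HT-Flx mouse 2 for 10.

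**Figure D1:**
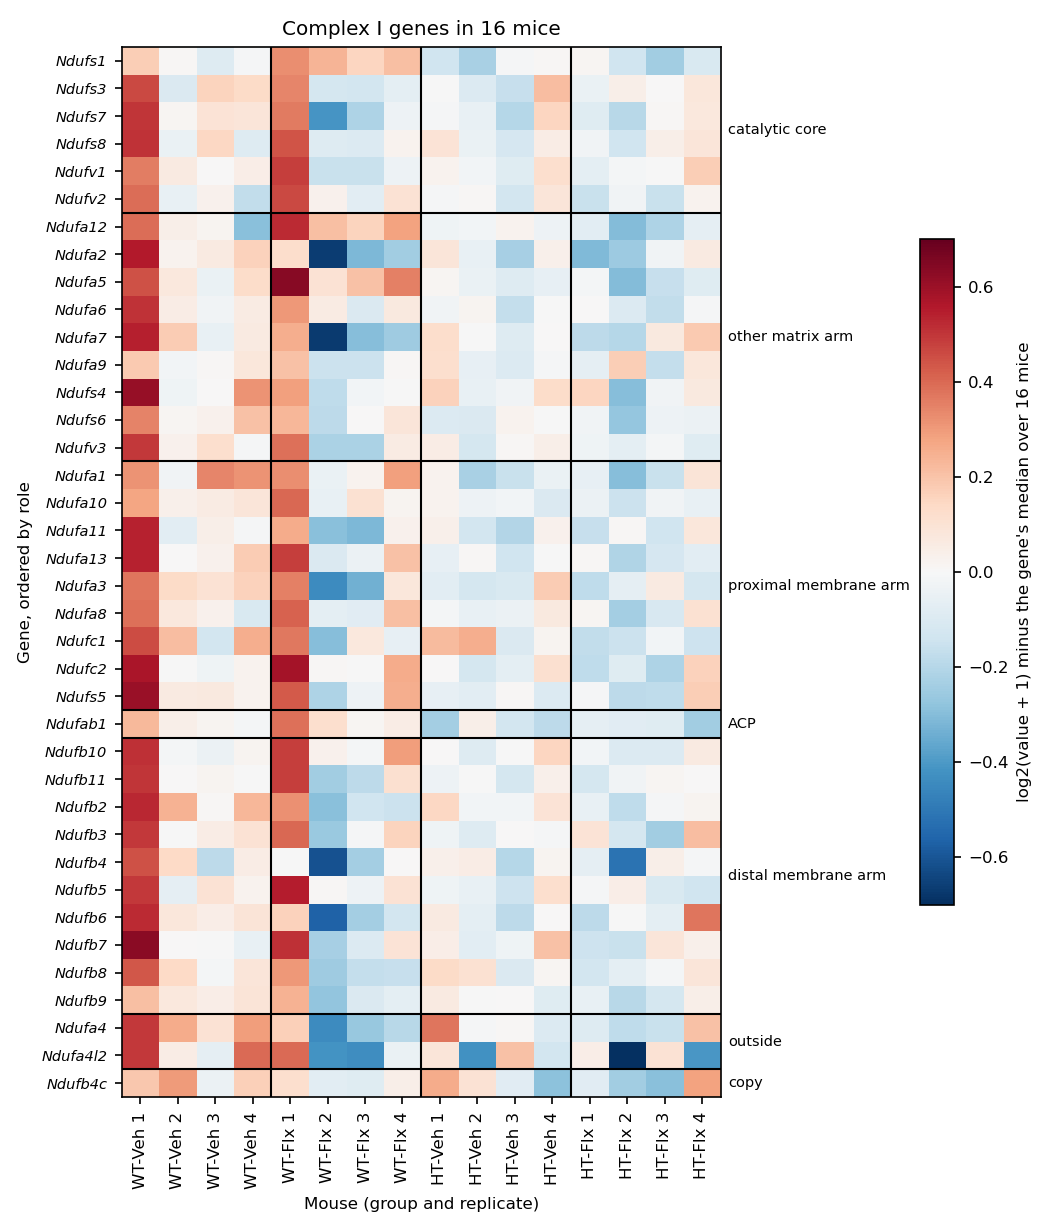
Each row is a complex I gene, ordered by role (ACP, acyl carrier protein; copy, the pseudogene Ndufb4c), and each column a mouse, with 1 gene not shown; colour gives log2(value + 1) minus the gene's median over 16 mice. WT-Veh mouse 1 and WT-Flx mouse 1 are above the median for nearly all genes, while Ndufs1, Ndufa12 and Ndufa5 are also above it in WT-Flx mice 2, 3 and 4.

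The same 2 mice deviated from the rest by transcript length across all genes. Genes with a mean of at least 100, without the 39, were split into 6 equal classes by length. In the shortest class (168 to 1512 nucleotides, 2086 genes), the median deviation from each gene's median was 0.27 in WT-Veh mouse 1 and 0.27 in WT-Flx mouse 1, and between -0.075 and 0.029 in the other 14. In the longest class (at least 4926 nucleotides, 2083 genes), it was -0.31 and -0.30, against -0.089 to 0.064. For the complex I genes it was 0.49 and 0.36, against -0.18 to 0.081, so they deviated in the direction of the shortest class and further. The comparisons were repeated with this length trend removed.

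**Figure D2:**
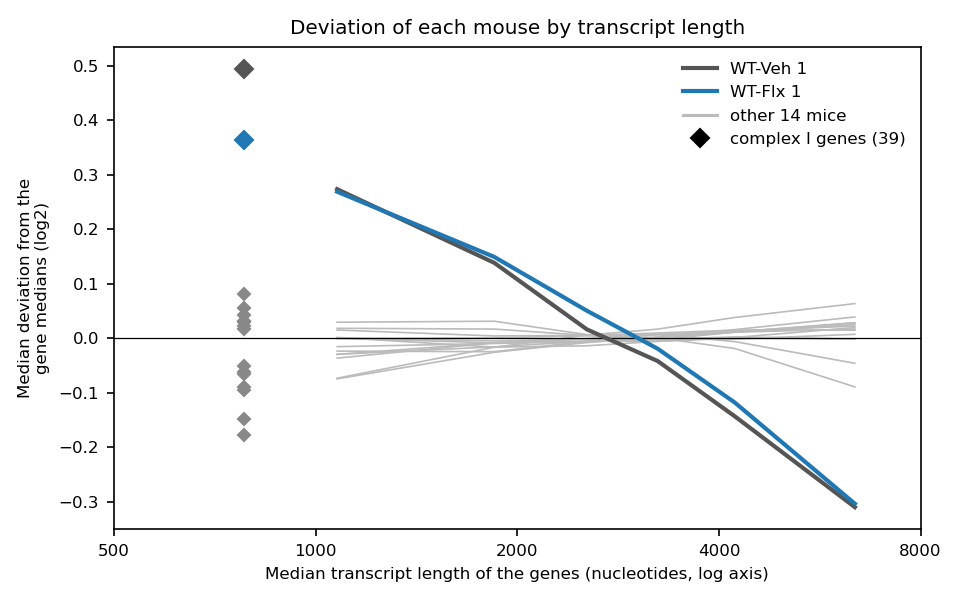
Lines give, for each mouse, the median log2 deviation of genes from their median over 16 mice (vertical axis) in 6 classes of transcript length (horizontal axis, log scale), and diamonds the same for the 39 complex I genes. Only WT-Veh 1 and WT-Flx 1 slope from 0.27 for the shortest class to -0.31 and -0.30 for the longest, and their complex I genes lie at 0.49 and 0.36.

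Comparisons were therefore also run without these mice and with the length trend of each mouse removed, both chosen after the data were seen. Of 8 comparisons, none had a complex I gene past an adjusted p of 0.05 in limma, in any of the settings run. The smallest adjusted p of any member under any alternative was 0.0799, in HT versus WT over both treatments. The group comparisons below share samples, above all WT-Veh, so their values are given side by side only. Shares of all genes at an unadjusted p under 0.05 are those of the fits with all mice, no covariate and no removal of the length trend. Counts from the other settings have no such share beside them.

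HT-Veh versus WT-Veh addressed the effect of the mutation without drug. All 39 complex I genes had a lower mean log2 value in HT-Veh, with a median change of -0.17 (range -0.34 to -0.053) against a median of 0.0062 over all 16832 genes tested, of which 48.2% were below 0. None of the 39 passed the adjusted threshold (limma; 0.0119% of all genes did so in the lower and 0.00594% in the higher direction). At an unadjusted p under 0.05, 3 of 39 were lower and 0 higher, against 2.26% and 2.63% of all genes. Without WT-Veh mouse 1 the median change was -0.073 and 35 of 39 genes were lower. With the length trend removed it was -0.098, with 38 lower. Without WT-Veh mouse 1 and HT-Veh mouse 4, the mice of these groups rich in bulb markers, it was -0.085 with 36 lower. With the olfactory bulb marker score as a covariate it was -0.14, with 16 of 39 lower at an unadjusted p under 0.05. The 2.26% of all genes belongs to the fit without this covariate and cannot be set beside the 16. Small p-values were more common among all genes with the covariate. Ndufab1 had an unadjusted p of 0.0303 and an adjusted p of 0.438 there, against 0.0435 and 0.922 without it (limma).

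Ndufa1 (ENSMUSG00000016427, chrX:37187588-37191163, minus strand in GRCm38) had the smallest p. It encodes a small X-linked membrane subunit that is needed for assembly of the enzyme. Its values were 825, 653, 841 and 827 in WT-Veh, 676, 568, 595 and 644 in HT-Veh, 832, 643, 675 and 812 in WT-Flx mice and 637, 539, 596 and 706 in HT-Flx, each list in the order of mice 1 to 4. WT-Veh mouse 2 lay below HT-Veh mouse 1, and the other WT-Veh mice lay above all of HT-Veh, so the groups overlapped. HT-Veh minus WT-Veh was -0.34 ± 0.10 as a log2 difference ± SE (adjusted p = 0.899 in limma; exact permutation test, two-sided, p = 0.0571). Without WT-Veh mouse 1 it was -0.31 ± 0.10, and with the length trend removed -0.24 ± 0.10.

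Ndufa3, another small subunit of the proximal membrane arm, was 1066, 900.1, 881 and 916 in WT-Veh and 781, 753, 761 and 927 in HT-Veh. HT-Veh mouse 4 lay within the WT-Veh range and the other HT-Veh mice below it. The change was -0.22 ± 0.095 (adjusted p = 0.922 in limma; exact permutation p = 0.114), -0.16 ± 0.083 without WT-Veh mouse 1 and -0.13 ± 0.077 with the length trend removed. Ndufab1, the mitochondrial acyl carrier protein that also serves fatty acid synthesis, was 1782, 1567, 1539 and 1506 in WT-Veh and 1289, 1568, 1394 and 1342 in HT-Veh. HT-Veh mouse 2 reached the WT-Veh range. The change of Ndufab1 was -0.19 ± 0.084 (adjusted p = 0.922 in limma; exact permutation p = 0.114), -0.14 ± 0.072 without WT-Veh mouse 1 and -0.18 ± 0.077 with the length trend removed.

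Values of the groups did not overlap for 2 of 39 genes, Ndufa10 and Ndufs5, both lower in HT-Veh and both named after their values were seen, against 1.78% of all genes in this direction and 2.06% in the other. Ndufa10, an accessory subunit of the membrane arm, was 2923 ± 229 in WT-Veh and 2638 ± 94.8 in HT-Veh (SD, n = 4). Ndufs5, an accessory subunit on the outer side of that arm, was 1512 ± 316 and 1259.8 ± 38.0.

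By role, the median change was -0.13 for the 7 core genes, -0.17 for the 9 other matrix genes, -0.19 for the 9 proximal and -0.15 for the 10 distal membrane genes. Without WT-Veh mouse 1 these medians were -0.062, -0.055, -0.092 and -0.043. Within the core, Ndufv1, which binds NADH and the flavin, was 2802 ± 334 in WT-Veh and 2590.5 ± 151 in HT-Veh, and its iron-sulfur partner Ndufv2 was 2208 ± 392 and 2094 ± 127. Ndufs1, the largest core subunit, was 3156 ± 243 and 2921 ± 222. Each pair of means differed by less than the SD of WT-Veh.

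Other core genes sit nearer to ubiquinone. Ndufs7, an iron-sulfur subunit at the quinone site, was 1140.4 ± 187 in WT-Veh and 986 ± 97.6 in HT-Veh. Ndufs3, a structural subunit of this module, was 1844 ± 300.5 and 1627 ± 191. Ndufs8, another iron-sulfur subunit, was 1197 ± 239 and 1079 ± 70.6. All 7 core changes lay between -0.20 (Ndufs7) and -0.062 (Ndufv2), with adjusted p-values of at least 0.922 in limma. Without WT-Veh mouse 1 they lay between -0.092 (Ndufs7) and 0.052 (Ndufv2), with Ndufs3 at -0.074, Ndufs1 at -0.062, Ndufv1 at -0.027 and Ndufs8 at -0.0054, so most core differences rested largely on that mouse.

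HT versus WT over both treatments used all 16 mice with treatment as a term. Here 38 of 39 genes were lower in HT, with a median log2 change of -0.12 against 0.0044 over all genes, of which 48.9% were below 0. No gene of the 39 passed the adjusted threshold in limma (0.0114% of all genes lower). At an unadjusted p under 0.05, 11 of 39 were lower and 0 higher, against 5.44% and 6.42% of all genes. Without both WT mice numbered 1, 23 of 39 were lower with a median of -0.020, and 5 had an unadjusted p under 0.05. With the length trend removed, 31 were lower with a median of -0.064. With the bulb marker score as a covariate, 33 were lower with a median of -0.056, and 5 had an unadjusted p under 0.05.

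The genes with the smallest p were Ndufa5 and Ndufs1. Ndufa5 (chr6:24518666-24528013, minus strand), an accessory subunit of the matrix arm near the quinone site, was 1470.3, 1133, 1046 and 1181 in WT-Veh and 1087, 1044, 1014 and 1034 in the HT-Veh group, and 1677, 1158, 1241 and 1377 in WT-Flx against 1069.6, 874, 965 and 1018 in HT-Flx. All WT-Flx mice lay above all 8 HT mice, and WT-Veh mouse 3 lay within the range of the HT mice. The change in HT was -0.33 ± 0.085 (adjusted p = 0.243 in limma). Without both WT mice numbered 1 it was -0.23 ± 0.066 (adjusted p = 0.368), and with the length trend removed -0.25 ± 0.055 (adjusted p = 0.137).

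Ndufs1 (chr1:63143596-63176833, minus strand), which carries several of the iron-sulfur clusters, was 3492, 3125, 2913 and 3091 in WT-Veh and 2823, 2655, 3091 and 3116 in the HT-Veh group, and 3896, 3663, 3451 and 3589 in WT-Flx against 3135, 2823, 2627 and 2888 in HT-Flx. WT-Flx was the high group, with WT-Veh mouse 1 within its range, and the other groups overlapped with each other. Its change in HT was -0.23 ± 0.061 (adjusted p = 0.244 in limma), -0.19 ± 0.060 without both WT mice numbered 1 and -0.22 ± 0.057 with the length trend removed. Ndufab1 had a change of -0.23 ± 0.064 in this comparison (adjusted p = 0.269), -0.16 ± 0.052 without those mice and -0.22 ± 0.058 with the trend removed. These 3 genes kept most of their difference under both changes. The median over the 39 genes moved from -0.12 to -0.020 without the mice. For Ndufs1 and Ndufab1, with transcripts of 2626 and 2448 nucleotides, removing the length trend could change little. In the class of 2189 to 2876 nucleotides, WT-Veh mouse 1 and WT-Flx mouse 1 deviated by only 0.016 and 0.050. Ndufa5 and Ndufs1 had also been picked for their small p in this comparison. Ndufa1 went from -0.30 ± 0.079 to -0.25 ± 0.082 and -0.21 ± 0.066 under the same changes.

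WT-Flx versus WT-Veh asked what early fluoxetine left in wild-type mice. The 39 genes were split: 29 were lower and 10 higher in WT-Flx, with a median log2 change of -0.088 (range -0.48 to 0.25; 50.2% of all genes were below 0). The adjusted threshold was passed by none of them in limma (0.0% of all genes in the lower and 0.0% in the higher direction). At an unadjusted p under 0.05, Ndufa4, Ndufa2 and Ndufb6 were lower (3 of 39, against 2.0% of all genes) and Ndufs1 was higher (1 of 39, against 2.2%). Without both WT mice numbered 1, those counts were 10 and 2, the median was -0.12, and 30 of 39 were lower. Without WT-Flx mouse 1 alone, 11 were lower at that p and the median was -0.20, and without WT-Veh mouse 1 alone these were 2 and -0.043. Without WT-Flx mouse 2 they were 1 and -0.043, with the length trend removed 7 and -0.077, and with the bulb marker score as a covariate 7 and -0.19. The 2.0% and 2.2% of all genes belong to the fit with all mice and cannot be set beside the counts of these refits. Small p-values were more common among all genes without both WT mice numbered 1. There Ndufv1 had an unadjusted p of 0.0458 and an adjusted p of 0.321 (limma). With all mice, Ndufb6 had 0.0426 and 0.9997. The groups overlapped for all 39 genes, whereas 1.09% of all genes were fully separated in the lower and 1.81% in the higher direction.

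Ndufa4 (chr6:11900292-11907497, minus strand), the cytochrome c oxidase subunit, was 4425, 3761, 3368 and 3848 in WT-Veh and 3531, 2317, 2614 and 2741 in WT-Flx. Only WT-Flx mouse 1 reached the WT-Veh range. Its change was -0.47 ± 0.13 (adjusted p = 0.9997 in limma; exact permutation p = 0.0571). Without both WT mice numbered 1 the change was -0.52 ± 0.084 (adjusted p = 0.0972), and with the length trend removed it was -0.40 ± 0.067 (adjusted p = 0.387). In the heterozygotes Ndufa4 was 4067, 3129, 3155 and 2945 in HT-Veh and 2950.4, 2779.8, 2825 and 3616 in HT-Flx, and these ranges overlapped. Its relative Ndufa4l2, at a much lower level, was 77.5 ± 14.5 in WT-Veh and 63.4 ± 11.8 in the HT-Veh group, and 61.7 ± 17.9 in WT-Flx against 55.7 ± 16.4 in HT-Flx (SD, n = 4), and it had an unadjusted p under 0.05 in none of the 8 comparisons (limma).

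Ndufa2, a matrix arm subunit with a thioredoxin-like fold, was 1131, 783, 803 and 862 in WT-Veh and 839, 486, 619 and 649.5 in WT-Flx. WT-Flx mice 2, 3 and 4 lay below all WT-Veh mice. The change was -0.48 ± 0.17 (adjusted p = 0.9997 in limma; exact permutation p = 0.0857), -0.49 ± 0.12 without both WT mice numbered 1 and -0.42 ± 0.098 with the length trend removed. Ndufs1 went the other way, at 0.21 ± 0.083 (adjusted p = 0.9997), 0.23 ± 0.063 without those mice and 0.20 ± 0.073 with the trend removed.

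**Figure D3:**
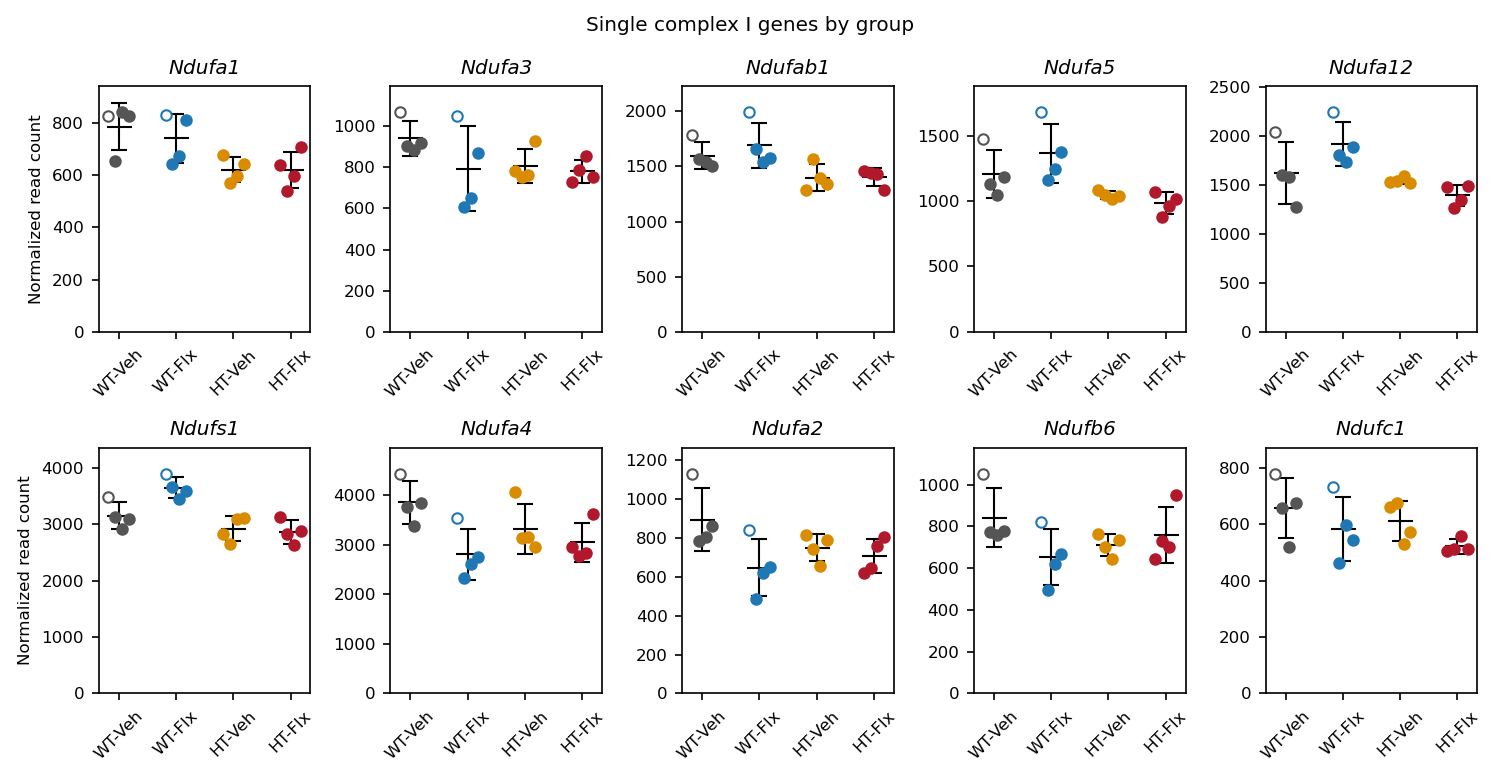
Normalized read counts (vertical axes, from 0) of 10 of the 39 genes in the 4 groups, among them Ndufa4, now assigned to cytochrome c oxidase. Points are mice, bars the group mean ± SD (n = 4), and open circles WT-Veh mouse 1 and WT-Flx mouse 1. In WT-Flx, Ndufs1 and Ndufa12 have their highest group means (3649.8 and 1921), while Ndufa4 and Ndufa2 have their lowest (2801 and 648).

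HT-Flx versus WT-Flx compared the genotypes after drug. Of 39 genes, 27 were lower in HT-Flx (against 48.4% of all genes), with a median log2 change of -0.082. Without WT-Flx mouse 1, 17 were lower and the median was 0.022, so the direction of the median rested on that mouse. With the length trend removed, 23 were lower with a median of -0.015, and with the bulb marker score as a covariate 25 with a median of -0.058 and 0 at an unadjusted p under 0.05. None passed the adjusted threshold in limma (0.0238% of all genes lower, 0.0179% higher). At an unadjusted p under 0.05, 4 were lower and 0 higher, against 4.87% and 5.58% of all genes. The 4 genes were Ndufa12, Ndufs1, Ndufa5 and Ndufab1, and the values of the groups did not overlap for these 4 (4 of 39 lower and 0 higher, against 3.13% and 2.7% of all genes).

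Ndufa12 (chr10:94198720-94221443, plus strand), an accessory subunit at the junction of the matrix arm, was 2244, 1805, 1739 and 1895 in WT-Flx and 1482, 1267, 1344 and 1493 in HT-Flx. Its values were 2047, 1604, 1585 and 1272 in WT-Veh and 1530.1, 1538, 1590.2 and 1526 in HT-Veh. WT-Flx was the high group, with WT-Veh mouse 1 within its range, and the 4 HT-Flx mice lay below all HT-Veh mice as well. The change in HT-Flx versus WT-Flx was -0.46 ± 0.11 (adjusted p = 0.289 in limma; exact permutation p = 0.0286, the smallest that 4 against 4 mice can give). Without WT-Flx mouse 1 it was -0.38 ± 0.090 (adjusted p = 0.298), and with the length trend removed -0.38 ± 0.075 (adjusted p = 0.192). Ndufs1 had a change of -0.35 ± 0.087 (adjusted p = 0.289 in limma; exact permutation p = 0.0286) and of -0.32 ± 0.082 without WT-Flx mouse 1. Olfactory bulb markers were high in WT-Flx mice 1, 2 and 4 and low in all HT-Flx mice, and with their score as a covariate Ndufa12 was at -0.39 ± 0.18 and Ndufs1 at -0.28 ± 0.15.

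HT-Flx versus HT-Veh asked what the drug left in heterozygous mice. The median log2 change was -0.045 with 31 of 39 genes lower (against 48.8% of all genes), and neither group holds WT-Veh mouse 1 or WT-Flx mouse 1. With the length trend removed the median was -0.023 with 24 lower, with the bulb marker score as a covariate -0.023 with 25 lower, without HT-Flx mouse 2 -0.015 with 26 lower, and without HT-Veh mouse 4 -0.021 with 25 lower. No gene of the 39 passed the adjusted threshold in limma (0.0% of all genes). Only Ndufc1 had an unadjusted p under 0.05 (1 of 39 lower and 0 higher, against 1.64% and 1.43% of all genes). Ndufc1, a small membrane subunit, was 662, 676, 528 and 574 in HT-Veh and 503, 511, 559 and 512 in HT-Flx. HT-Veh mouse 3 lay below HT-Flx mouse 3, and the other HT-Veh mice lay above all HT-Flx mice. The change was -0.22 ± 0.10 (adjusted p = 1.0000 in limma; exact permutation p = 0.0571). For Ndufa12 the groups did not overlap (1 of 39 genes, against 1.05% of all), and the change was -0.15 ± 0.073 (adjusted p = 1.0000 in limma; exact permutation p = 0.0286).

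HT-Flx versus WT-Veh set treated heterozygotes against wild types given vehicle. All 39 genes were lower in HT-Flx, with a median log2 change of -0.20 against 0.0062 over all genes, of which 48.7% were below 0. The adjusted threshold was passed by none of them in limma (0.0% of all genes), and 11 of 39 were lower at an unadjusted p under 0.05, against 2.67% of all lower and 2.47% higher. Groups were fully separated in 6 of 39 genes, all lower, against 1.89% of all genes lower and 1.91% higher. Without WT-Veh mouse 1 the median was -0.096, 39 of 39 were lower and 4 had an unadjusted p under 0.05. With the length trend removed these were -0.096, 38 and 5, and with the bulb marker score as a covariate -0.11, 39 and 5. Ndufa4 had the smallest p, with a change of -0.34 ± 0.11 (adjusted p = 0.858 in limma; exact permutation p = 0.0571), followed by Ndufa1 at -0.34 ± 0.12 (adjusted p = 0.858; exact permutation p = 0.0571). With the length trend removed Ndufa4 was at -0.19 ± 0.081 and Ndufa1 at -0.19 ± 0.11. Over the 11 exact tests of single genes in pairs of groups, no p was under 0.05 after Benjamini-Hochberg adjustment, the smallest being 0.0785.

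Flx versus Veh over both genotypes gave a median of -0.056 with 32 of 39 lower, against 49.1% of all genes. It was -0.011 with 22 lower without WT-Veh mouse 1, -0.11 without WT-Flx mouse 1, -0.034 without WT-Flx mouse 2 and -0.033 with 26 lower after removal of the length trend. None passed the adjusted threshold in limma (0.0% of all genes), and 3 (Ndufa4, Ndufa2 and Ndufb2) were lower at an unadjusted p under 0.05, against 1.74% of all genes lower and 1.37% higher. Ndufa4 had a log2 difference of -0.30 ± 0.098 with all mice and of -0.29 ± 0.090 without both WT mice numbered 1 (adjusted p = 0.9997 and 0.917). Ndufa2 was at -0.28 ± 0.11 (adjusted p = 0.9997).

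The interaction subtracts the effect of the drug in wild types from its effect in heterozygotes. It had a median of 0.087 over the 39 genes, of which 13 were below 0, against 49.7% of all genes. Without WT-Veh mouse 1 the median was -0.00023, without WT-Flx mouse 1 it was 0.18, and without both it was 0.098. Without WT-Flx mouse 2 it was 0.017, with the length trend removed 0.071, and with the bulb marker score as a covariate 0.19. No gene of the 39 passed the adjusted threshold in limma (0.0% of all genes). At an unadjusted p under 0.05, Ndufa12 and Ndufs1 were below 0 (2 of 39, against 2.29% of all genes) and Ndufb6, a distal membrane arm subunit, was above it (1 of 39, against 2.0%). The term was -0.40 ± 0.16 for Ndufa12 (adjusted p = 0.998 in limma), -0.24 ± 0.11 for Ndufs1 and 0.46 ± 0.21 for Ndufb6 (adjusted p = 0.998). Ndufb6 was 1052, 775, 757 and 780.3 in WT-Veh and 765, 699, 645 and 733 in the HT-Veh group, and 819.5, 495, 619.9 and 670.3 in WT-Flx against 645, 732, 699.7 and 951 in HT-Flx. WT-Flx mouse 2 was the lowest of all, WT-Veh mouse 1 and HT-Flx mouse 4 were the highest, and the groups overlapped.

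**Figure D4:**
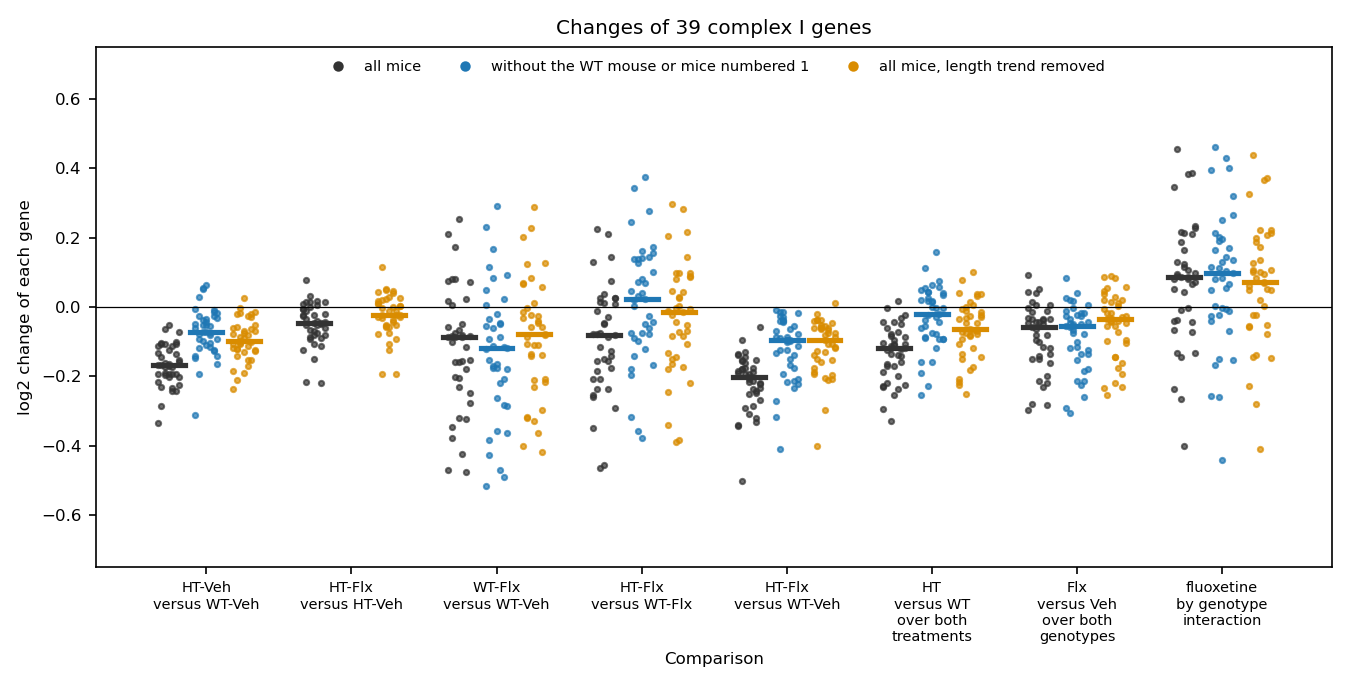
Points are the log2 changes of the 39 complex I genes in each of 8 comparisons (horizontal axis) and bars their medians, with all mice (black), without the WT mouse or mice numbered 1 where the comparison holds them (blue), and with the length trend of each mouse removed (orange). In HT-Veh versus WT-Veh the median moves from -0.17 to -0.073 and -0.098, and in HT-Flx versus WT-Flx it crosses 0 without WT-Flx mouse 1.

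Across groups, the highest of the 4 group means belonged to WT-Veh for 29 genes and to WT-Flx for 10, and the lowest to HT-Flx for 25, WT-Flx for 8 and HT-Veh for 6. Without both WT mice numbered 1, the highest mean belonged to WT-Veh for 29 genes, to WT-Flx for 9 and to HT-Veh for 1, and the lowest to WT-Flx for 21, HT-Flx for 15 and HT-Veh for 3. WT-Veh therefore remained at the top for most genes, while the lowest place moved from HT-Flx to WT-Flx. How far such group means differ beyond the spread between mice is given by the comparisons above.

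The genes also varied together from mouse to mouse. After subtraction of group means, the median correlation over the 741 pairs of genes was 0.74 over 16 mice, and 0.36 without both WT mice numbered 1, so much of it came from these mice. The log2 values of Ndufb11 (r = 0.93) were among those that followed the mean of the other genes most closely over 16 mice. Least like it were Ndufs1 (r = 0.40) and Ndufb4c (r = 0.49). Without both WT mice numbered 1, r was -0.16 for Ndufs1 and 0.70 for Ndufb11. Genes measured in the same libraries share their depth and composition, so these values are descriptions.

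Other genes of the pathway were taken from lists. Among 16 complex I assembly factors, 0 passed the adjusted threshold in either direction in any of the 8 comparisons (limma). In HT-Veh versus WT-Veh 15 of 16 were lower, against 48.2% of all genes, with a median log2 change of -0.069. Their mean log2 value was 8.74 in WT-Veh, 8.70 in WT-Veh mice 2 to 4 and 8.68 in HT-Veh, so the difference rested largely on WT-Veh mouse 1. At an unadjusted p under 0.05 stood only Ndufaf1, an early assembly factor, which was 366 ± 25.8 in WT-Veh and 404 ± 27.4 in the HT-Veh group, and 437 ± 27.8 in WT-Flx against 375 ± 31.9 in HT-Flx (SD, n = 4). Its change was 0.26 ± 0.10 in WT-Flx versus WT-Veh (adjusted p = 0.9997 in limma) and its interaction term -0.37 ± 0.13 (adjusted p = 0.998).

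The 7 mitochondrially encoded subunits, whose levels in poly-A libraries depend on how their RNA is captured, had 0 past the adjusted threshold in any comparison. As a list they did not share the pattern of the nuclear genes: their mean log2 value was lowest in WT-Veh mouse 1 (15.35), was 15.47 in WT-Flx mouse 1, and lay between 15.45 and 15.97 in the other 14. HT-Veh versus WT-Veh gave them a median of 0.080, with 1 of 7 lower, where all nuclear genes were below 0. The single gene mt-Nd3 differed from the list. It was 3166 in WT-Veh mouse 1, the highest of the 16 mice, and 2541 in WT-Flx mouse 1, the highest of its group. Its mean was 2303 in WT-Veh and 1677 in HT-Veh. In the interaction, mt-Nd3 had the only unadjusted p under 0.05, at 1.19 ± 0.50 (adjusted p = 0.998 in limma).

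Of 12 markers of mitochondrial mass such as Vdac1 and Tomm20, which encode outer membrane channels and import receptors, 0 passed, and of 12 regulators of mitochondrial biogenesis such as Ppargc1a, Nrf1 and Gabpa, 0 passed in the 8 comparisons. In HT versus WT over both treatments, Timm23 and Vdac2 were lower at an unadjusted p under 0.05 (-0.14 ± 0.064 and -0.13 ± 0.058). The mean of the mitochondrial mass markers was highest in the same mice as complex I, at 11.57 in WT-Veh mouse 1 and 11.58 in WT-Flx mouse 1. It lay between 11.30 and 11.44 in the others. Single markers differed. Vdac1 was 11255 and 11122.5 in these mice, the highest of each group. Tomm20 was 7667 in WT-Veh mouse 1, the lowest of its group, and 8050 in WT-Flx mouse 1, where the group ran from 8019 to 8789. In WT-Veh mouse 1 and WT-Flx mouse 1 the mean of the assembly factors was 8.87 and 8.88, against 8.52 to 8.76. The lead of WT-Veh mouse 1 over WT-Veh mice 2 to 4 was 0.39 for complex I, 0.22 for mitochondrial mass and 0.17 for the assembly factors.

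**Figure D5:**
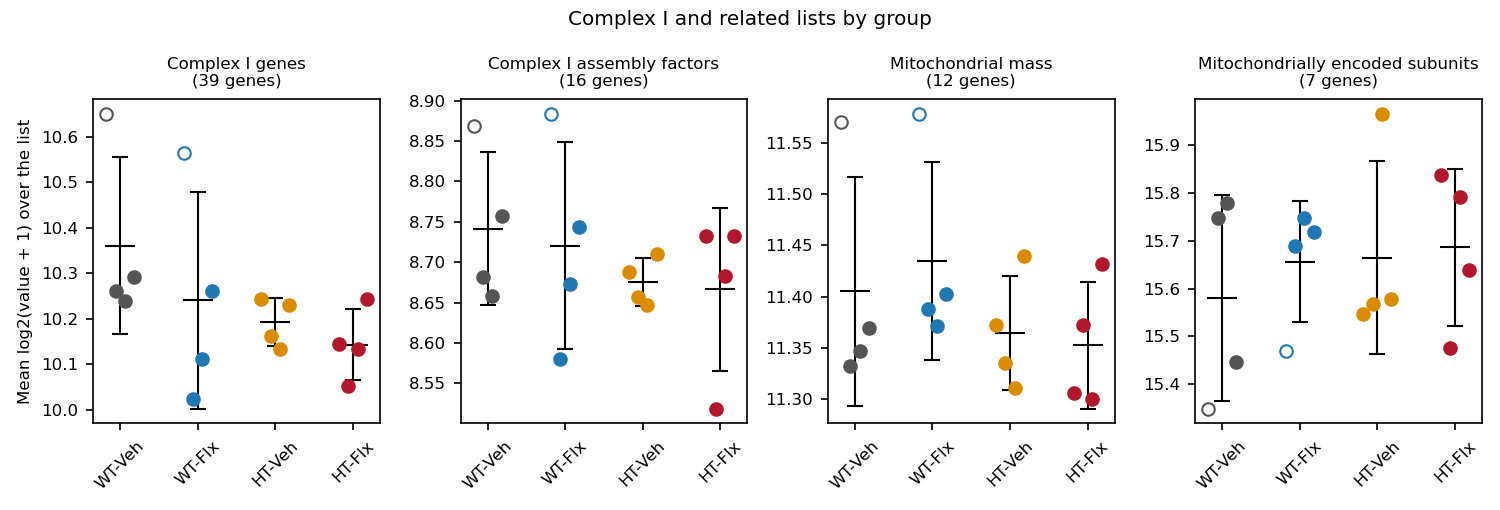
Mean log2(value + 1) over each list (vertical axes, each with its own range) by group; points are mice, bars the group mean ± SD (n = 4), and open circles WT-Veh mouse 1 and WT-Flx mouse 1. The open circles are the highest points in the first 3 panels, at 10.65 and 10.56 for complex I, and WT-Veh mouse 1 is the lowest for the mitochondrially encoded subunits.

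Markers of other cell types were read in the same mice. The olfactory bulb marker mean was 9.95 in WT-Veh mouse 1, 9.54 in WT-Flx mouse 4, 8.22 in WT-Flx mouse 2, 7.40 in WT-Flx mouse 1, about as high in HT-Veh mouse 4 as in WT-Flx mouse 2, and between 3.84 and 5.10 in the rest. Of these mice, WT-Veh 1 and WT-Flx 1 had the highest complex I means (10.65 and 10.56). WT-Flx 4 and HT-Veh 4 had means of 10.26 and 10.23, within the range of the mice low in bulb markers, and WT-Flx mouse 2 had the lowest of all. Glutamatergic neuron markers were lowest in WT-Veh mouse 1 (10.91), and GABAergic markers highest there (11.65, against 11.09 to 11.44). Striatal neuron (7.81) and microglia markers (10.14) were also lowest in this mouse, and oligodendrocyte markers (12.40) were second lowest, below the mean of WT-Veh mice 2 to 4 (13.01). In WT-Flx mouse 1 all 5 of these lists were within the range of the other mice. Their part in the complex I values was not tested beyond the covariate above.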

How the data were processed

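The authors prepared stranded poly-A libraries, quantified transcripts with Salmon (1.1.0, GC bias correction, GRCm38), brought them to gene level by tximport, and used DESeq2 (1.30.1) for normalization. The deposited signal is a normalized read count per gene and mouse. It did not fall on whole-read steps, so the depth is unknown and no interval from counting is given.

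Groups and replicate numbers came from the sample titles. Each comparison was fitted with limma (3.58.1, R 4.3.3; intensity trend) on log2(value + 1), over genes of at least 10 in at least 4 mice of the fit, with Benjamini-Hochberg adjustment over all genes and a threshold of 0.05. Pairs used only the groups compared, and the other comparisons all 16 mice. A log2 change on this scale understates changes of low genes. Single genes were also compared by exact permutation, two-sided, where 4 against 4 mice cannot give a p below 0.0286. P-values measure the spread between these mice. Whether litters were shared is not given.

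Transcript length is the median over a gene's protein-coding transcripts in GENCODE M21. The length trend was removed per mouse with lowess (span 0.3). Promoter windows were RefSeq's. Named genes were the core subunits, Ndufab1, Ndufa4 and Ndufa4l2, the 3 highest and lowest per kilobase, the 2 of smallest p in each comparison (3 in HT-Veh versus WT-Veh), and the 2 most and least like the rest; the values of 1 of these are not reported here. Members, lists and tests were chosen with earlier results of these data known. The fits were tested on simulated data. Same-numbered mice did not deviate together in every pair of any comparison, so no block was used.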

Additional observations from a re-analysis of the deposited data

Results flagged for a closer look

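In groups of 4 mice, a value was singled out when its gap to the nearest mouse exceeded the critical share of the group's range (Dixon's test), which chance gives in about 1 group in 20. Of 72 groups tested over the named genes and the mean of the 39 genes, 7 were singled out. The mean log2 value of complex I in WT-Veh mouse 1 was 10.65, with the other WT-Veh mice between 10.24 and 10.29. Ndufv1 was 3298 in WT-Veh mouse 1, against 2576 to 2681 in the others. Ndufb6 was 1052 in the same mouse, against 757 to 780.3. Ndufs3 was 2068 in WT-Flx mouse 1, against 1490.1 to 1554. Ndufa1 was 653 in WT-Veh mouse 2, against 825 to 841. Ndufab1 was 1285 in HT-Flx mouse 4, against 1435 to 1456. Ndufc1 was 559 in HT-Flx mouse 3, against 503 to 512.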

How the results depend on the processing

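In each of the 8 comparisons, 0 of 39 genes passed the threshold under every alternative run, and the 17 results of the genes with the smallest p in each comparison kept their direction in all 380 refits. Other named genes did not: in HT-Veh versus WT-Veh without WT-Veh mouse 1, Ndufv2 went from -0.062 to 0.052 and Ndufa12 from -0.053 to 0.064, and in HT versus WT without both WT mice numbered 1, Ndufs3 went from -0.079 to 0.027. The median change over the 39 genes turned in 2 comparisons. In HT-Flx versus WT-Flx (-0.082 with all mice) it was 0.031 with sample quality weights and between -0.16 and 0.022 when each mouse was left out in turn, the upper value without WT-Flx mouse 1. In the interaction (0.087) it lay between -0.00023 and 0.18 when each mouse was left out, the lower value without WT-Veh mouse 1. In the other 6 comparisons it stayed below 0. With each mouse left out, it ran from -0.11 to -0.011 in Flx versus Veh over both genotypes, and the range over the alternatives in HT-Veh versus WT-Veh was -0.22 to -0.073. Counts at an unadjusted p under 0.05 were less stable, moving by more than 1.5 times in 64 of 180 refits. With each mouse left out in turn, the number of genes lower at that p ran from 7 to 15 in HT versus WT over both treatments and from 1 to 8 in Flx versus Veh over both genotypes. In HT-Veh versus WT-Veh 3 genes were lower in the main analysis, and from 1 to 16 in the alternatives. The lower count was without WT-Veh mouse 1 and the higher with the bulb markers as covariate. No share of all genes is given beside these counts of the alternatives. The smallest adjusted p in limma was 0.261 with that covariate and 0.233 over all alternatives of this comparison.

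The replicate number as a block left the median of HT-Veh versus WT-Veh at -0.17, with 4 genes lower at an unadjusted p under 0.05. It raised that count in WT-Flx versus WT-Veh from 3 to 9 and in HT-Flx versus WT-Flx from 4 to 8. The share of all genes at that p under the block is not given, so whether the rise was particular to these genes was not tested. Correlations of same-numbered mice ran from -0.27 to 0.42 between WT-Veh and WT-Flx, and no comparison had every mouse closest to its own number. The sequencing depth is unknown, so how depth limits these values could not be assessed.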
